A study of Mus musculus with 8 samples.

Results

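Ly6a, Ly6c1, Ly6c2, Ly6e and Ly6g encode small surface antigens of the Ly6 family, and they were read from the gene table of monocytic cells of bone marrow (BM) by their symbols, 5 of the 16160 genes in it. All cells came from C57BL/6 wild type mice and were sorted as CD11c-CD11b+Ly6G-SiglecF-Ly6C hi, then divided by surface CD115, the M-CSF receptor encoded by Csf1r. In EL4 tumor-bearing (TB) mice the sorted cells are monocytic myeloid-derived suppressor cells (M-MDSCs), taken as a CD115- subset (tCD115-) and a CD115+ subset (tCD115+) at day 21 of tumor growth. The CD115- and CD115+ monocytes of naive, tumor-free mice (nCD115- and nCD115+) were their counterparts. There were 2 biological replicates in each of the 4 groups and 8 libraries in all. EL4 is a T cell lymphoma line of C57BL/6 origin, so the tumor groups describe 1 transplanted tumor at 1 time. The age of the mice and the number of mice behind each library are not given in the sample labels. The gate is part of the design here, because it removed cells with Ly6G protein and kept cells high in Ly6C protein in all 4 groups, and the counts are of mRNA.

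Ly6 proteins are short, cysteine-rich proteins with the LU fold that they share with the urokinase receptor, and most are held in the outer membrane by a glycosylphosphatidylinositol (GPI) anchor. In mouse BM they are used mainly as labels. Ly6G marks neutrophils, Ly6C, the product of Ly6c1 and Ly6c2, marks inflammatory monocytes when it is high, and Sca-1, the product of Ly6a, marks stem cells and is also found on lymphocytes. Ly6e is expressed broadly and its protein affects the entry of several viruses. Several of these genes, Ly6a, Ly6c and Ly6e among them, are known to be induced by interferon in mouse cells.

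The 5 genes lie within 204 kb of chromosome 15 (GRCm38, the build also called mm10, with the GENCODE M21 annotation), and each has 4 exons in the transcript used here. In order along the chromosome they are Ly6e (gene ID 17069, 74955051 to 74959905, plus strand), Ly6a (gene ID 110454, 74994877 to 74998031, minus strand), Ly6c1 (gene ID 17067, 75044018 to 75048830, minus strand), Ly6c2 (gene ID 100041546, 75108158 to 75111970, minus strand) and Ly6g (gene ID 546644, 75155240 to 75159126, plus strand). Ly6c1 and Ly6c2 are separated by 59 kb and are near-copies. Their coding sequences of 396 bases differ at 9 bases (97.7% identical), and 6 of those 9 fall in the first 210 bases, which are printed because they show how little sequence separates the reads of the pair. In the lines of Ly6c1 and Ly6c2 capitals mark the bases that differ between the pair. The same stretch of Ly6g has 44 capitals, which mark bases that differ from Ly6c2 or face a gap in the alignment with it.
Ly6c1: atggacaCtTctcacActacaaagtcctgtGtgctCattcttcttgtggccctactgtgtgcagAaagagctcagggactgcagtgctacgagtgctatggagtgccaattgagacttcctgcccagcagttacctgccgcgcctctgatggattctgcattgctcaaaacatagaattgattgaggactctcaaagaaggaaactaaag
Ly6c2: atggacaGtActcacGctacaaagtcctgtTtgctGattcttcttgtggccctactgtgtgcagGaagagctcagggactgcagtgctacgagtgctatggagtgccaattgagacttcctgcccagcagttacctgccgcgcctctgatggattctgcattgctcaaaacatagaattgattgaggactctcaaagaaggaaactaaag
Ly6g: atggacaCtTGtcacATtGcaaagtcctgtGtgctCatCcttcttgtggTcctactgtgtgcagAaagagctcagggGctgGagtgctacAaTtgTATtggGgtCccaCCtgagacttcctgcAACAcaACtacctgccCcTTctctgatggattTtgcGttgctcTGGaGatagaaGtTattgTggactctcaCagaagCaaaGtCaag

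Over the whole coding sequence Ly6g was 78.3% identical to Ly6c2 and 83.2% identical to Ly6a, whereas Ly6e had 50.5% to 53.8% identity with the other 4. The longest run without a difference between Ly6c1 and Ly6c2 was 188 bases. Of all stretches of 100 bases in the Ly6c1 and Ly6c2 transcripts, 15.3% and 15.8% also occur in another transcript of the annotation, against 0 for Ly6a, Ly6e and Ly6g. At 50 bases the shared part was 36.7% for Ly6c1, 33.0% for Ly6c2, 10.04% for Ly6a, 0.448% for Ly6g and 0 for Ly6e. The sources used here do not say how the authors' counting placed reads that fit several genes, so the split between Ly6c1 and Ly6c2 is uncertain, and their sum is given beside it.

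The libraries held 69692398 to 95353798 reads each (median 91432632), and 0.248% to 0.445% of them fell in the 5 genes. Levels are given as CPM, counts relative to library size, after scaling by trimmed mean of M-values (TMM). Differences between groups are log2 fold changes from edgeR's quasi-likelihood test on the counts of all 8 libraries, with the Benjamini-Hochberg adjustment over the 13211 genes tested, among them all 5 Ly6 genes. A gene was called at an adjusted p under 0.05 and a change of at least 2-fold. In bulk RNA, fewer cells of a type and less RNA per cell cannot be told apart, which holds for every difference given here. The sorting of CD115 was visible in the mRNA of Csf1r, which had 283 and 490 CPM in tCD115- cells, against 891 and 869 CPM in tCD115+ cells, and 825 and 728 CPM in nCD115- cells, against 1159 and 1333 CPM in nCD115+ cells. Its log2 fold change was −1.19 in EL4 TB mice (edgeR adjusted p = 0.00634) and −0.68 in naive mice, where it was not called (edgeR adjusted p = 0.0805).

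Per length, Ly6c2 was the highest and Ly6e the next of the 5 genes in each of the 8 libraries, followed by Ly6c1. Below them Ly6g stood above Ly6a in the 4 CD115- libraries and under Ly6a in the 4 CD115+ libraries. In the FPKM values that the authors deposited, the group means of Ly6c2 were 1958 ± 57.9 in tCD115- cells, 2618 ± 124 in tCD115+ cells, 2040 ± 153 in nCD115- cells and 2413 ± 171 in nCD115+ cells (SD, n = 2 each). Those of Ly6e were 472 ± 116, 977 ± 66.5, 602 ± 103 and 901 ± 41.1 FPKM in the same order of groups. These 2 genes were far apart in every group, also relative to their spread.

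Ly6c1 had 101 ± 10.1 FPKM in tCD115- cells, 110 ± 42.9 in tCD115+ cells, 112 ± 6.57 in nCD115- cells and 113 ± 6.13 in nCD115+ cells (SD, n = 2 each). Ly6g had 35.5 ± 11.2, 0.803 ± 0.399, 23.5 ± 3.10 and 0.452 ± 0.0630 FPKM in these groups, and Ly6a had 4.61 ± 0.419, 4.25 ± 0.587, 4.66 ± 0.776 and 4.08 ± 0.451 FPKM. The order of the 5 genes was the same by CPM per kilobase of exon. The closest neighbours there were Ly6c1 and Ly6g in tCD115- cells, with 54.2 ± 4.26 and 37.7 ± 13.3 CPM per kilobase, which is apart by little more than the spread of Ly6g. The distance between this pair rests on the length taken for Ly6c1, since the deposited FPKM correspond to a length of 836 to 876 bases and its exons cover 1677 bases.

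**Figure D1:**
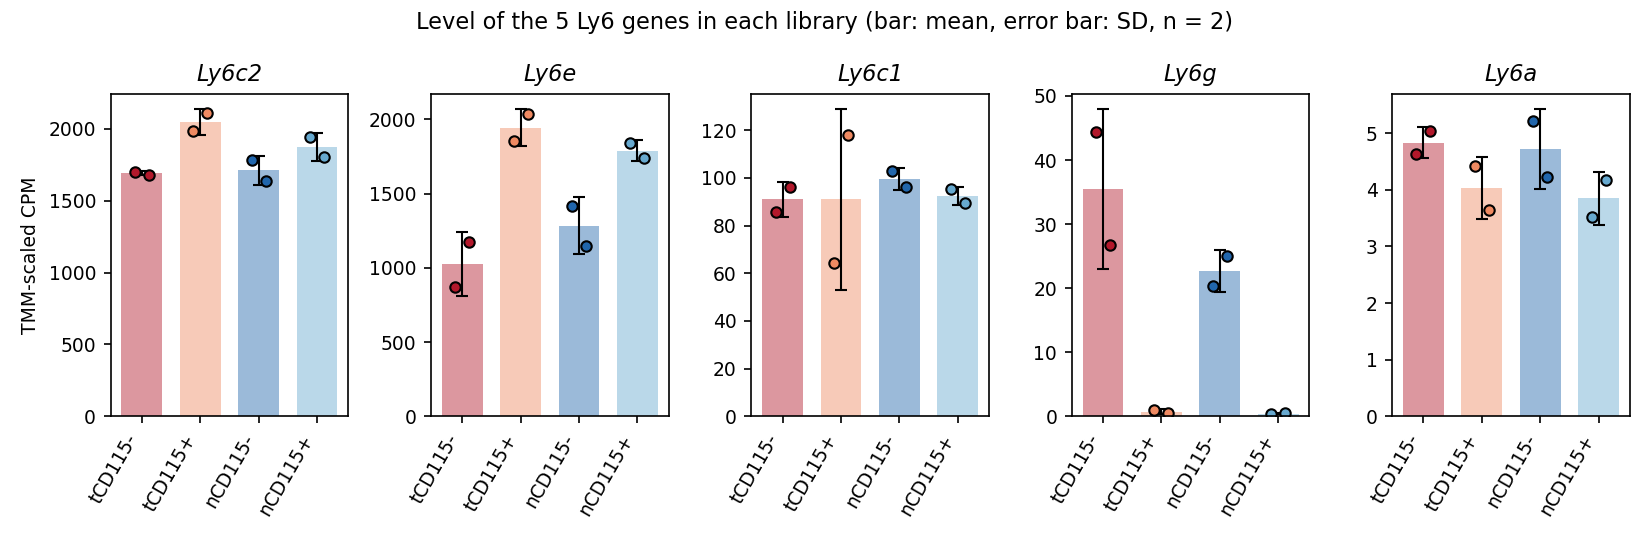
Level of each Ly6 gene in each library, in TMM-scaled CPM, each gene on its own axis from 0. Points are libraries, bars are group means and error bars are SD (n = 2). Ly6g is the gene whose CD115- libraries (20.3 to 44.3 CPM) stand far above the CD115+ libraries (0.360 to 0.980 CPM), and the Ly6c1 libraries of tCD115+ are the widest pair, at 64.1 and 118 CPM.

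Ly6g mRNA was present in the CD115- subset of both hosts and nearly missing from the CD115+ subset, although the gate had removed Ly6G+ cells from all groups. It had 44.3 and 26.7 CPM in tCD115- libraries, against 0.980 and 0.468 CPM in tCD115+ libraries. In naive mice it had 20.3 and 25.0 CPM in nCD115- libraries, against 0.360 and 0.450 CPM in nCD115+ libraries. The lowest CD115- library was thus many times above the highest CD115+ library, and the groups did not overlap. These levels correspond to 3736 and 2396 reads in tCD115- and 1813 and 2088 reads in nCD115- libraries, against 97 and 34 reads in tCD115+ and 32 and 44 reads in nCD115+ libraries.

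The log2 fold change of Ly6g was 5.57 in EL4 TB mice (SE 0.37, 95% interval 4.70 to 6.44, edgeR adjusted p = 6.48e-05), or 47.5-fold higher in tCD115- cells. In naive mice it was 5.80 (SE 0.39, interval 4.88 to 6.71, edgeR adjusted p = 9.41e-05), or 55.6-fold higher in nCD115- cells. The difference between these changes was −0.23, with an interval of −1.45 to 1.00 (edgeR interaction, adjusted p = 0.962), an interval that includes 0 and is wide. Ly6g rose in both hosts under each of the 15 alternatives run, with log2 fold changes of 5.17 to 6.24 in EL4 TB mice and 5.64 to 5.97 in naive mice.

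Ly6g alone of the members was called between the subsets, in both hosts, and 1 of 5 genes has to be read against the background of all genes. Between tCD115- and tCD115+ cells 12.3% of the genes tested were called, 8.36% higher and 3.97% lower. Between nCD115- and nCD115+ cells 6.21% were called, 5.73% higher and 0.484% lower. A single call among 5 genes is no share that stands apart from these, so the result is about Ly6g and not about the 5 genes together. The split of the calls in EL4 TB mice depended on scaling and on single libraries, since 67.8% of them were higher in tCD115- cells here, 54.6% with scaling by library totals alone, 51.1% without tCD115- replicate 2 and 82.7% without tCD115- replicate 1. The 525 genes called lower here numbered 1127 without tCD115- replicate 2, 196 without tCD115- replicate 1, and 342 and 327 without tCD115+ replicates 1 and 2.

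Other neutrophil transcripts stood beside Ly6g. Of 18 neutrophil markers, 16 were called higher in tCD115- cells relative to tCD115+ cells and 0 lower, with a median log2 fold change of 5.08 against −0.05 over all genes, and 16 were called higher in nCD115- cells relative to nCD115+ cells, with a median of 4.81 against −0.01. The count in naive mice was lower without nCD115- replicate 2 or either nCD115+ library, fits that leave a group without a replicate. The 18 markers had medians of 4.56 to 4.83 in those fits. Their summed level ranged from 74532 to 120029 CPM in tCD115- and from 52302 to 68238 CPM in nCD115- libraries, against 2291 to 2845 CPM in tCD115+ and 1985 to 2046 CPM in nCD115+ libraries. As a share of all reads, the 18 genes took 11% and 7.22% in tCD115-, against 0.295% and 0.239% in tCD115+ libraries, and 5.13% and 6.56% in nCD115-, against 0.211% and 0.212% in nCD115+ libraries. None of the 18 was at 0 in any group, the CD115+ groups included. Their part in the Ly6g result was not tested.

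Among 8480 genes of at least 10 CPM, the pattern of Ly6g across the 8 libraries was most like that of S100a9 (Pearson r of log2 CPM 0.9996), Chil1 (r = 0.998) and Far2 (r = 0.998), given as a measure of likeness with no test, since the libraries fall into 4 groups and 977 genes had an r over 0.9. S100a9, a subunit of the calcium-binding protein calprotectin of neutrophils, had 35325 and 21023 CPM in tCD115-, 392 and 198 CPM in tCD115+, 14945 and 19378 CPM in nCD115-, and 125 and 149 CPM in nCD115+ libraries. In each of the pairs the library that was higher in S100a9 was also higher in Ly6g. The reads of Ly6g per 1000 reads of S100a9 were 1.25 and 1.27 in tCD115- and 1.36 and 1.29 in nCD115- libraries, against 2.50 and 2.36 in tCD115+ and 2.88 and 3.02 in nCD115+ libraries. This ratio put the CD115+ libraries above the CD115- libraries. Relative to the 18 neutrophil markers together the order was the opposite, with 0.369 and 0.358 Ly6g reads per 1000 marker reads in tCD115- and 0.388 and 0.367 in nCD115-, against 0.345 and 0.204 in tCD115+ and 0.181 and 0.220 in nCD115+ libraries. The direction of the ratio thus depended on the genes taken for the comparison, and S100a9 was chosen for its likeness to Ly6g.

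**Figure D2:**
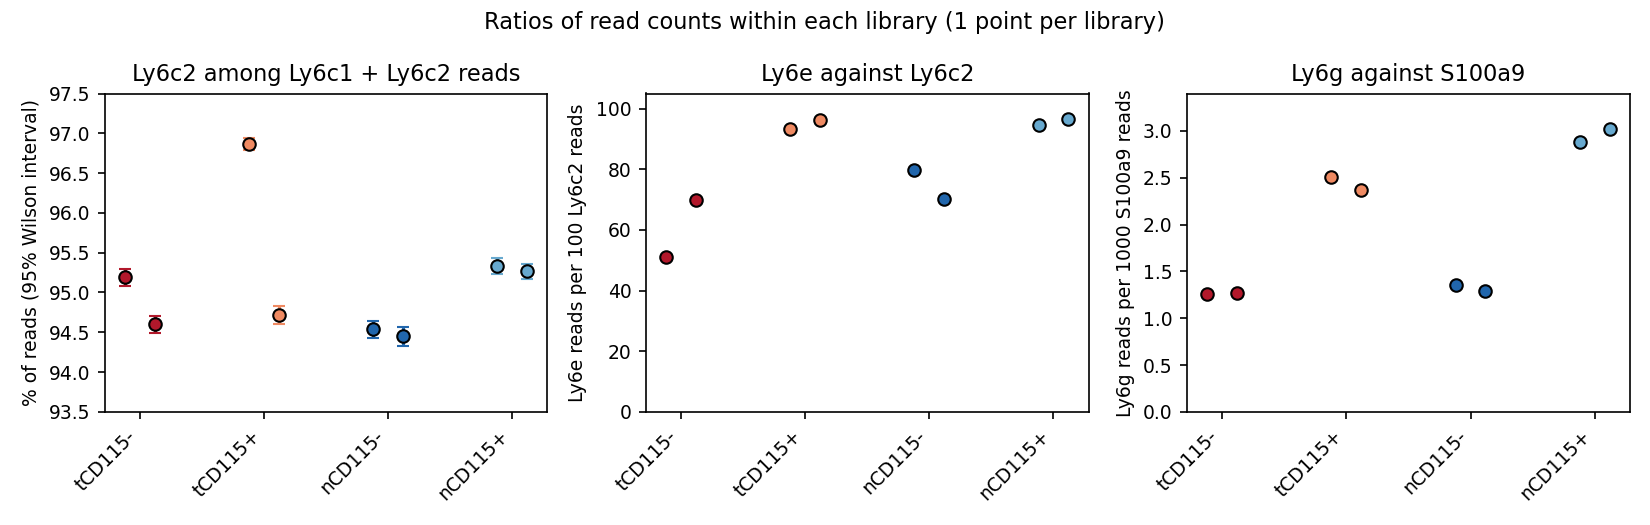
Ratios of reads within a library, which do not depend on how libraries are scaled, with 1 point per library and 95% Wilson intervals in the left panel, whose axis does not start at 0. The share of Ly6c2 among the reads of Ly6c1 and Ly6c2 is 94.4% to 96.9%. Ly6e reads per 100 Ly6c2 reads are 51.2 to 79.6 in the CD115- libraries and 93.4 to 96.5 in the CD115+ libraries, and Ly6g reads per 1000 S100a9 reads are 1.25 to 1.36 and 2.36 to 3.02, an order that is the opposite relative to the 18 neutrophil markers together (0.358 to 0.388 and 0.181 to 0.345, not drawn).

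Ly6e was lower in the CD115- than in the CD115+ subset of EL4 TB mice. It had 871 and 1177 CPM in tCD115- libraries, against 1855 and 2034 CPM in tCD115+ libraries, and the groups did not overlap. The log2 fold change was −0.92 (SE 0.16, interval −1.29 to −0.56, edgeR adjusted p = 0.00416), or 0.527-fold, so Ly6e fell by the test and stayed just under the 2-fold limit of a call. It passed the limit with scaling by library totals alone (−1.06, edgeR adjusted p = 0.00374), a setting that moved the median of all genes by −0.14, and without tCD115- replicate 2 (−1.16, edgeR adjusted p = 0.000153).

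In naive mice Ly6e had 1418 and 1147 CPM in nCD115- libraries, against 1840 and 1740 CPM in nCD115+ libraries. The nCD115- pair was below the nCD115+ pair without overlap, but the log2 fold change of −0.48 did not pass the test (SE 0.16, interval −0.85 to −0.11, edgeR adjusted p = 0.0799, range over alternatives 0.00756 to 0.402). The interaction of −0.44 had an interval of −0.96 to 0.07 (edgeR adjusted p = 0.841), so the changes of the hosts were not shown to differ. Over the 4 groups Ly6e averaged 1024 ± 217 CPM in tCD115-, 1283 ± 192 CPM in nCD115-, 1790 ± 70.5 CPM in nCD115+ and 1944 ± 127 CPM in tCD115+ cells (SD, n = 2 each). Neighbours within a subset did not differ beyond their spread, by the tests between hosts given further on.

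Relative to Ly6c2, whose reads come from the same libraries, Ly6e had 51.2 and 70.02 reads per 100 reads in tCD115-, against 93.4 and 96.3 in tCD115+ libraries, and 79.6 and 70.04 in nCD115-, against 94.7 and 96.5 in nCD115+ libraries. The CD115+ libraries of both hosts were nearly equal in this ratio, and the CD115- libraries were lower and more scattered. The genes most like Ly6e were Lgals3 (r = 0.996), which encodes galectin-3, Slc29a1 (r = 0.995), a nucleoside transporter, and Fam91a1 (r = 0.995), with 767 genes over 0.9. Lgals3 had 667 and 873 CPM in tCD115-, 1250 and 1273 CPM in tCD115+, 995 and 831 CPM in nCD115-, and 1196 and 1191 CPM in nCD115+ libraries.

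Ly6c2, the main source of Ly6C reads, differed little between groups that were all sorted for high Ly6C. It had 1700 and 1681 CPM in tCD115- libraries, against 1985 and 2112 CPM in tCD115+ libraries, with no overlap. The log2 fold change was −0.28 (SE 0.085, interval −0.47 to −0.08, edgeR adjusted p = 0.0364), far from 2-fold. The adjusted p crossed 0.05 in several alternatives and ranged from 0.00985 to 0.210, being 0.105 without tCD115+ replicate 1, 0.210 without tCD115+ replicate 2 and 0.0617 with another set of size factors, RLE.

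In naive mice Ly6c2 had 1782 and 1638 CPM in nCD115- libraries, against 1943 and 1803 CPM in nCD115+ libraries, and its log2 fold change of −0.13 did not pass the test (edgeR adjusted p = 0.318). The nCD115- libraries were again the lower pair, though 1782 and 1803 CPM are close. The genes most like Ly6c2 were Uqcc2 (r = 0.996), an assembly factor of mitochondrial complex III, Nifk (r = 0.990) and Lsm7 (r = 0.987), with 284 genes over 0.9.

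Ly6c1 showed no steady difference between the subsets. It had 85.9 and 96.0 CPM in tCD115- libraries, against 64.1 and 118 CPM in tCD115+ libraries, whose values lie on both sides of the tCD115- pair. The log2 fold change was 0.00 (SE 0.24, interval −0.55 to 0.55, edgeR adjusted p = 1), and which tCD115+ library was kept set its sign, with −0.37 without replicate 1 (edgeR adjusted p = 0.0662) and 0.50 without replicate 2 (edgeR adjusted p = 0.0334). In naive mice Ly6c1 had 103 and 96.3 CPM in nCD115- libraries, against 95.1 and 89.6 CPM in nCD115+ libraries, a log2 fold change of 0.11 (edgeR adjusted p = 0.782) that became −0.0038 with scaling by library totals alone.

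Of the reads of the pair, Ly6c2 took 95.2% (95% Wilson interval 95.1% to 95.3%) and 94.6% (94.5% to 94.7%) in tCD115-, and 96.9% (96.8% to 96.9%) and 94.7% (94.6% to 94.8%) in tCD115+ libraries. In naive mice it took 94.5% (94.4% to 94.6%) and 94.4% (94.3% to 94.6%) in nCD115-, and 95.3% (95.2% to 95.4%) and 95.3% (95.2% to 95.4%) in nCD115+ libraries. These intervals cover counting error only. The library of tCD115+ replicate 1 stood above the other 7, and it is the library with the lowest Ly6c1 level.

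Over both hosts the share of Ly6c2 was 94.7% ± 0.338 in CD115- and 95.5% ± 0.924 in CD115+ libraries (SD, n = 4 each), a difference of −0.852 percentage points that did not pass a 2-sided exact permutation test (p = 0.0571, adjusted over both tests 0.114), in which 4 against 4 libraries cannot go below 0.0286. Leaving out 1 library at a time gave −1.13 to −0.410 points. Over both subsets it was 95.3% ± 1.05 in EL4 TB and 94.9% ± 0.468 in naive libraries (SD, n = 4 each), a difference of 0.448 points (exact permutation test, p = 0.514). The sum of Ly6c1 and Ly6c2, which does not depend on how reads were split between them, had 1786 and 1777 CPM in tCD115- libraries, against 2049 and 2230 CPM in tCD115+ libraries. Its log2 fold change was −0.26 (edgeR adjusted p = 0.0469, range over alternatives 0.0122 to 0.269), and in naive mice it was −0.12 (edgeR adjusted p = 0.379).

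Monocyte markers moved beside Ly6c2 and Ly6e in EL4 TB mice. Of 13 such genes, 8 were called lower in tCD115- cells relative to tCD115+ cells and 0 higher, against 3.97% of all genes called lower. Csf1r is 1 of these 8, and since the subsets were sorted on its protein, its call adds nothing beyond the sort. The 8 lower genes came to 1 without tCD115- replicate 1 and 11 without tCD115- replicate 2, and 0 were called between nCD115- and nCD115+ cells. The median log2 fold change of the list was below that of all genes in both hosts. It was −1.04 against −0.05 in EL4 TB mice and −0.57 against −0.01 in naive mice. Ccr2, the chemokine receptor by which monocytes leave the BM, had a log2 fold change of −1.19 in EL4 TB mice (edgeR adjusted p = 0.00202). In naive mice it was −0.61, under the 2-fold limit (edgeR adjusted p = 0.0488). The summed level of the list was 16307 to 20291 CPM in tCD115-, 25776 to 26640 CPM in tCD115+, 27001 to 29169 CPM in nCD115-, and 30549 to 34698 CPM in nCD115+ libraries, and no marker was at 0 in any group. Most of the sum was Lyz2 in every group, so the sum does not stand for the list. Lyz2 was not called between the subsets of EL4 TB mice (−0.25, edgeR adjusted p = 0.113) or naive mice (−0.07, edgeR adjusted p = 0.701). The part of the monocyte markers in the Ly6c2 and Ly6e results was not tested, and neither was that of the neutrophil reads in the same CD115- libraries.

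Ly6a was the lowest of the 5 genes in the CD115- cells and differed little anywhere. It had 4.64 and 5.03 CPM in tCD115- libraries, against 4.42 and 3.65 CPM in tCD115+ libraries, and 5.22 and 4.22 CPM in nCD115- libraries, against 3.52 and 4.17 CPM in nCD115+ libraries. The CD115- libraries were the higher pair in each host, by less than the test could separate. The log2 fold changes were 0.26 (interval −0.16 to 0.68, edgeR adjusted p = 0.290) in EL4 TB mice and 0.30 (edgeR adjusted p = 0.292) in naive mice, at 265 to 466 reads per library. No gene had an r over 0.9 with Ly6a, and the most alike was Ripk1 (r = 0.864), a kinase of cell death signaling.

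Genes of stem cells and lymphocytes, the cells that Sca-1 is best known from, are given beside Ly6a. Of 12 stem and progenitor markers tested, 5 were called higher and 3 lower between the subsets of EL4 TB mice, and 4 higher and 1 lower between those of naive mice, CD115- over CD115+. The 3 lower genes came to 1 without tCD115- replicate 1 or either tCD115+ library, and the 1 lower gene to 0 without nCD115- replicate 2 or nCD115+ replicate 1. The median log2 fold change of the list was −0.11 in EL4 TB mice and 1.05 in naive mice, against −0.05 and −0.01 over all genes. Kit, the stem cell factor receptor and among the most abundant of the list, was far above that median. It had log2 fold changes of 4.23 (edgeR adjusted p = 3.5e-05) and 4.10 (edgeR adjusted p = 4.99e-05). The summed level of this list was 158 to 217 CPM in tCD115-, 58.1 to 63.4 CPM in tCD115+, 150 to 193 CPM in nCD115-, and 65.6 to 73.8 CPM in nCD115+ libraries, with no marker at 0 in a whole group. Most of the sum in CD115- cells was Myb, Kit and Erg, each called higher in both hosts, so the sum does not stand for the list.

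Of 18 T and NK cell markers, 16 were called higher in tCD115- cells relative to tCD115+ cells (11 without either tCD115+ library) and 7 in nCD115- cells relative to nCD115+ cells (1 to 3 without any 1 of their 4 libraries, 13 without either tCD115- library). Of all genes, 8.36% were called higher in EL4 TB mice and 5.73% in naive mice. The T and NK cell markers were low, at 20.2 to 38.2 CPM in sum in tCD115-, 3.54 to 3.70 CPM in tCD115+, 21.3 to 23.1 CPM in nCD115-, and 7.56 to 8.79 CPM in nCD115+ libraries, and Cd8b1 and Bcl11b were at 0 in both tCD115+ libraries. Endothelial and stromal markers, 1 of 7 called higher between the subsets in each host, summed to 26.0 to 31.5 CPM in tCD115-, 28.4 to 28.99 CPM in tCD115+, 18.9 to 21.5 CPM in nCD115-, and 22.04 to 25.9 CPM in nCD115+ libraries. Most of this sum was Pecam1 in every group, and Pecam1 was not called between the subsets. The count of 1 of 7 does not stand apart from the shares of all genes. The called gene was Col1a1, with 224 and 150 reads in tCD115- and 79 and 145 in nCD115-, against 3 and 0 in tCD115+ and 13 and 0 in nCD115+ libraries. The part of any of these cell types in the level of Ly6a was not tested.

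**Figure D3:**
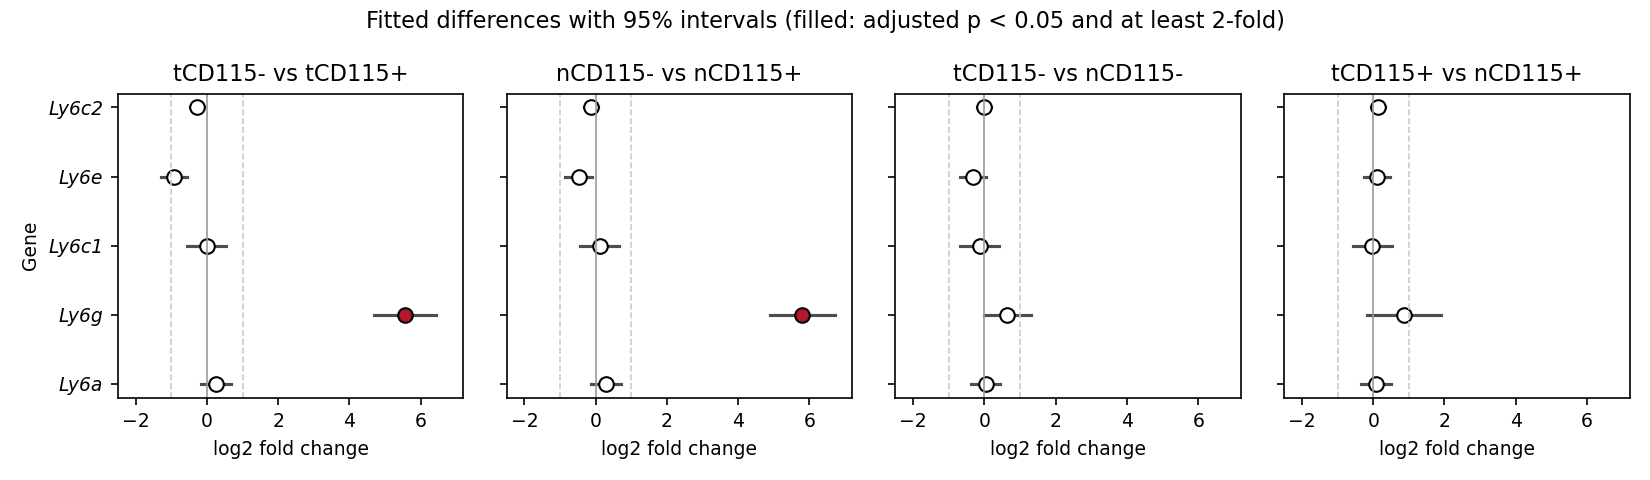
Log2 fold changes of the 5 Ly6 genes between the subsets of each host and between the hosts in each subset, with 95% intervals from edgeR's quasi-likelihood fit. Dashed lines stand at 2-fold and filled points are called genes. Ly6g between the subsets (5.57 and 5.80) lies past them, Ly6e between tCD115- and tCD115+ cells (−0.92) lies short of them, and every interval between hosts spans 0.

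Between the hosts none of the 5 genes passed the test in either subset. In the CD115- subset the largest difference was that of Ly6g, with 44.3 and 26.7 CPM in tCD115- against 20.3 and 25.0 CPM in nCD115- libraries. The tCD115- pair was higher without overlap, by a narrow margin for its lower library. The log2 fold change was 0.65 (SE 0.29, interval −0.02 to 1.32, edgeR adjusted p = 0.169), and it was 0.97 without tCD115- replicate 2 (edgeR adjusted p = 0.0249) and 0.23 without tCD115- replicate 1 (edgeR adjusted p = 0.642). Beside it, 2 of the 18 neutrophil markers were called higher in this comparison and 0 lower (0 to 4 higher over the alternatives), with a median of 0.72 and the sums given above, and their part was not tested.

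Ly6e was −0.32 in this comparison (interval −0.69 to 0.04, edgeR adjusted p = 0.201) with overlapping libraries, and −0.56 without tCD115- replicate 2 (edgeR adjusted p = 0.0106). Ly6a, Ly6c1 and Ly6c2 had log2 fold changes of 0.03 (interval −0.38 to 0.45), −0.13 (−0.68 to 0.42) and −0.02 (−0.21 to 0.18). The interval of Ly6c2 is the narrowest of the 5. Among all genes 3.29% were called between tCD115- and nCD115- cells, 0.855% higher and 2.43% lower, against 0 of the 5 members.

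In the CD115+ subset Ly6g had 0.980 and 0.468 CPM in tCD115+, against 0.360 and 0.450 CPM in nCD115+ libraries, a log2 fold change of 0.87 at 32 to 97 reads per library (SE 0.44, interval −0.16 to 1.91, edgeR adjusted p = 0.236). The tCD115+ libraries were the higher pair, 1 of them barely, and the value was 0.20 without tCD115+ replicate 1 and 1.27 without tCD115+ replicate 2. Beside it, 3 of the 18 neutrophil markers were called higher and 1 lower in this comparison (0 in either direction without tCD115+ replicate 1 or either nCD115+ library, and 1 higher and 0 lower without tCD115+ replicate 2), with a median of 0.35, and their part was not tested. Ly6e had a log2 fold change of 0.12 (interval −0.25 to 0.49), Ly6c2 of 0.13 (−0.07 to 0.33), Ly6a of 0.07 (−0.35 to 0.49) and Ly6c1 of −0.02 (−0.57 to 0.53). Among all genes 2.6% were called between tCD115+ and nCD115+ cells, 0.939% higher and 1.66% lower. For the interaction 0% of all genes were called by edgeR, with 751 genes at an unadjusted p under 0.05 and 68 genes called by DESeq2, and none of the 5 members was among the calls of either tool.

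Since interferon is known to induce several Ly6 genes, 29 other interferon-stimulated genes were set beside the members. Between tCD115- and nCD115- cells 15 were called lower and 0 higher, with a median log2 fold change of −1.03 against 0.00 over all genes, and between tCD115+ and nCD115+ cells 12 were called lower and 0 higher, with a median of −0.96 against 0.02. All 29 had a negative value in both comparisons, from −2.81 to −0.37 and from −2.66 to −0.31. The count of calls depended on the libraries, with 4 to 22 lower over the alternatives in the CD115- subset (4 without nCD115- replicate 1, 6 without nCD115- replicate 2, 7 without nCD115+ replicate 1, 8 without nCD115+ replicate 2, 22 without tCD115- replicate 2, and 4 with only the 4 libraries compared) and 5 to 14 in the CD115+ subset (5 or 6 without any 1 of its 4 libraries).

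Among the most abundant of these genes by CPM, Ifi204 was at −1.17, called, in the CD115- and at −0.63, not called, in the CD115+ subset. Trim30a, also among them, was at −0.58 and −0.33 and was called in neither subset. The 5 members were at −0.32 to 0.65 in the CD115- and −0.02 to 0.87 in the CD115+ subset, on the same log2 scale. Between the subsets the same list had 1 gene called higher and 0 lower in EL4 TB mice, a count that held in every alternative for the higher gene and went to 10 lower without tCD115- replicate 2, and 0 called in naive mice (medians −0.41 and −0.29).

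**Figure D4:**
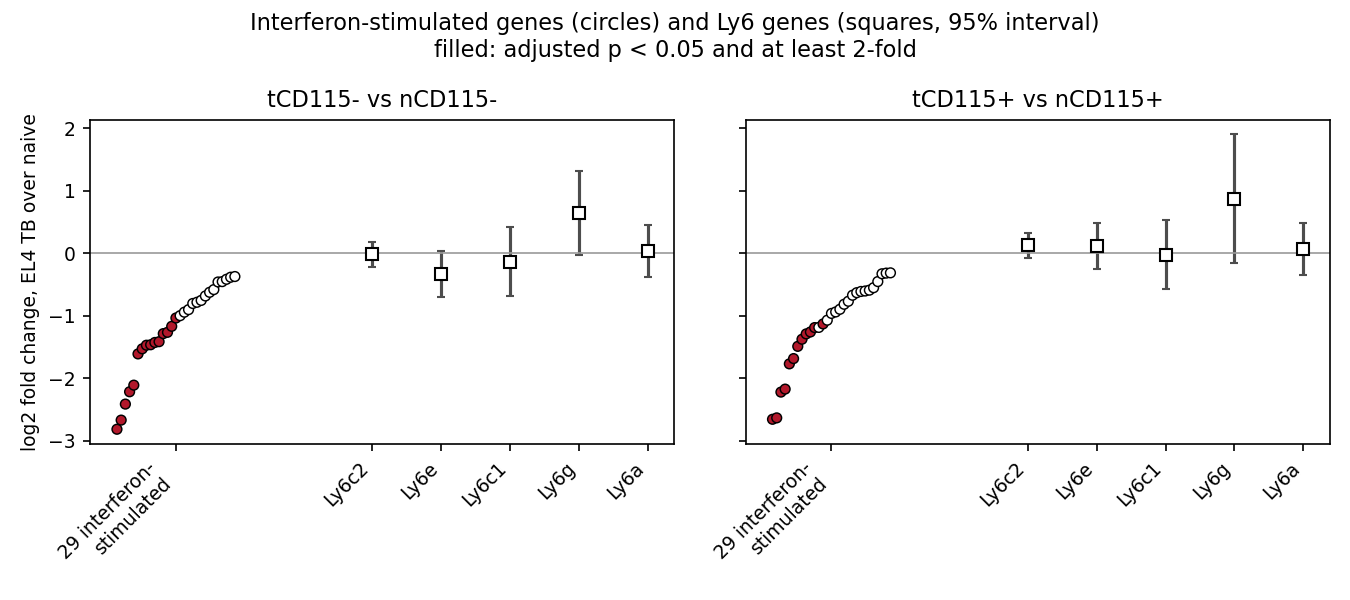
Log2 fold changes between the hosts, EL4 TB over naive, in the CD115- and the CD115+ subset, for 29 interferon-stimulated genes (circles, sorted by value, filled where called) and for the 5 Ly6 genes (squares with 95% intervals). The interferon-stimulated genes lie below 0 in both subsets (medians −1.03 and −0.96), and the Ly6 genes lie at −0.32 to 0.87.

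Of the wider Ly6/uPAR family, 44 other genes were listed, 13 were in the table and 11 could be tested. Between tCD115- and tCD115+ cells 4 were called higher (Cd177, Ly6g5b, 9030619P08Rik and Ly6d) and 1 lower (Lynx1), and between nCD115- and nCD115+ cells 3 were called higher (Cd177, Ly6g5b and 9030619P08Rik) and 0 lower. Their median log2 fold changes were 0.77 and 0.80, against −0.05 and −0.01 over all genes. Cd177, a surface protein of neutrophils that is also on the list of neutrophil markers, was the most abundant by CPM, with 2849 and 2068 CPM in tCD115-, 179 and 153 CPM in tCD115+, 1269 and 1716 CPM in nCD115-, and 341 and 415 CPM in nCD115+ libraries. Its log2 fold change was 3.89 in EL4 TB mice (edgeR adjusted p = 3.5e-05) and 1.98 in naive mice (edgeR adjusted p = 0.000708).

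9030619P08Rik followed Ly6g in kind, with 204 and 122 reads in tCD115- and 171 and 161 reads in nCD115-, against 4 and 0 reads in tCD115+ and 0 and 7 reads in nCD115+ libraries. Its fitted log2 fold changes were 6.28 (edgeR adjusted p = 0.00192) and 5.64 (edgeR adjusted p = 0.00362). With so few reads in the CD115+ groups the size of these values rests on single libraries, being 10.35 without tCD115+ replicate 1 in EL4 TB mice, and 4.72 without nCD115+ replicate 1 and 10.38 without nCD115+ replicate 2 in naive mice, while the gene was called higher each time. Ly6g5b, a family member outside the cluster of chromosome 15, had 3.16 and 2.27 CPM in tCD115-, 1.04 and 0.839 CPM in tCD115+, 1.56 and 2.29 CPM in nCD115-, and 0.574 and 0.552 CPM in nCD115+ libraries. It was called in both hosts (log2 fold changes of 1.52 and 1.77), but not without tCD115+ replicate 2 in EL4 TB mice, nor without nCD115- replicate 2 or either nCD115+ library in naive mice. Plaur, the urokinase receptor, was higher in CD115- cells under the 2-fold limit, at 0.77 (edgeR adjusted p = 0.00356) and 0.52 (edgeR adjusted p = 0.0311).

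Ly6d, a marker of early lymphoid cells, Ly6i, the neighbour of Ly6a, and Lynx1, a modulator of nicotinic receptors, had lower levels in EL4 TB than in naive mice, with calls that differed by subset. Ly6i had 2.43 and 1.94 CPM in tCD115-, against 4.35 and 3.89 CPM in nCD115- libraries (log2 fold change −0.92, edgeR adjusted p = 0.0319), and 3.94 and 3.05 CPM in tCD115+, against 6.85 and 7.71 CPM in nCD115+ libraries (−1.05, edgeR adjusted p = 0.0213, called). Lynx1 had 1.13 and 1.84 CPM in tCD115-, against 4.18 and 3.65 CPM in nCD115- libraries (−1.40, edgeR adjusted p = 0.0178, called), and 3.80 and 3.93 CPM in tCD115+, against 7.02 and 7.11 CPM in nCD115+ libraries (−0.87, edgeR adjusted p = 0.046). Within each subset the naive libraries of both genes were above those of EL4 TB mice without overlap.

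Ly6d had 1.31 and 1.45 CPM in tCD115-, against 2.67 and 2.91 CPM in nCD115- libraries, a log2 fold change of −1.02 that did not pass the test (edgeR adjusted p = 0.055). In the CD115+ subset it had 0.485 and 0.261 CPM in tCD115+, against 1.65 and 1.56 CPM in nCD115+ libraries (−2.07, edgeR adjusted p = 0.0126, called). Over all genes 1.66% were called lower between tCD115+ and nCD115+ cells and 2.43% between tCD115- and nCD115- cells. Besides Ly6d and Ly6i, Cd177 was called lower between tCD115+ and nCD115+ cells (−1.19, edgeR adjusted p = 0.0182), with 0 called higher and a family median of −0.19. These 3 calls fell to 1 without tCD115+ replicate 1 and to 0 without any 1 of the other 3 CD115+ libraries. Between tCD115- and nCD115- cells Lynx1 was the 1 family gene called (median 0.06), and it was not called without nCD115- replicate 1 or 2.

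**Figure D5:**
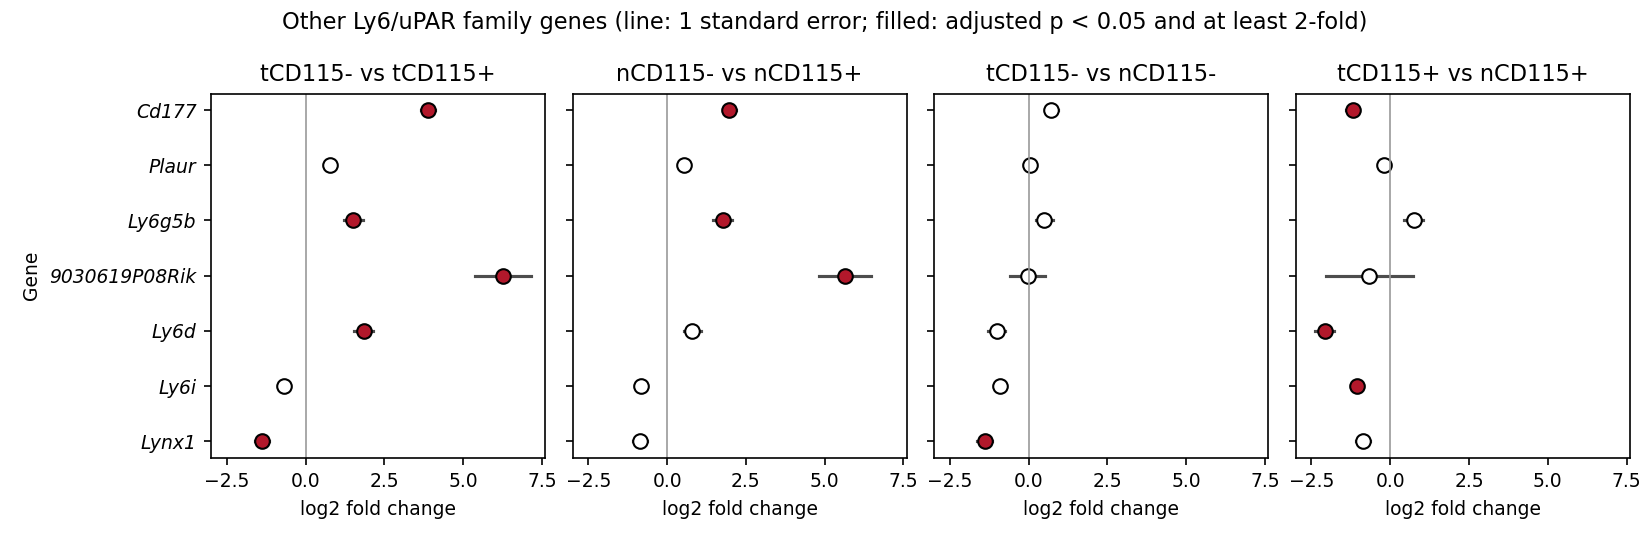
Log2 fold changes of 7 other Ly6/uPAR family genes between the subsets of each host and between the hosts in each subset, with lines of 1 SE. Filled points are called genes. Cd177, Ly6g5b and 9030619P08Rik are called higher in CD115- cells of both hosts (1.52 to 6.28), and Ly6d, Ly6i and Cd177 are called lower in tCD115+ than in nCD115+ cells (−2.07 to −1.05).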

How the data were processed

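RNA-Seq libraries of 8 samples (4 groups of 2) were prepared from total RNA with a stranded mRNA kit. The authors deposited 1 table of whole-number read counts per gene, not normalized, and FPKM values per library, which served here for levels per length, with no test. The submitters' processing notes name mm10, HISAT2 2.0.5, Bowtie2, StringTie 1.3.3b and DESeq2 without roles, and the strand and multi-mapping settings of counting were not given in the sources used here. Besides, the table holds 24 columns of the authors' comparisons (fold changes and p-values of 4 comparisons) and 12 further value columns, which were not used.

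The counts were analysed in R 4.3.3 with edgeR 4.0.16 (limma 3.58.1): filterByExpr left 13211 of 16160 genes, libraries were scaled by TMM, and a robust quasi-likelihood model with 1 mean per group was fitted to all 8 libraries (4 residual degrees of freedom), with Benjamini-Hochberg adjustment. Genes were called at an adjusted p under 0.05 and at least 2-fold. Steps were tested on simulated data. Read totals of 69692398 to 95353798 bound the precision of low genes. Replicate pairs differed by more than sampling noise (chi-square per degree of freedom 32.7 to 204). The edgeR p-values rest on the spread between 2 biological replicates per group, pooled over the 4 groups. That spread is moderated by the spread of the other genes (median prior degrees of freedom 3.65). A 2 against 2 permutation test cannot go below 0.333, so the Ly6c2 share was tested 4 against 4 with scipy 1.17.1. Likeness is the Pearson r of log2 CPM (prior count 2). Sequences and exon lengths were read from GENCODE M21 (GRCm38) with Python 3.11.15, and plots drawn with matplotlib 3.10.9.

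The alternatives were DESeq2 1.42.0, RLE size factors, library totals alone, no filter, at least 10 counts in every library, a replicate block, only the 4 libraries compared, and each library left out. The same alternatives for the gene lists were added after the data had been seen. Equal replicate numbers were not shown to pair the samples by the check of their deviations, given with the alternatives.

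The 5 members and the gene lists were chosen with earlier results of these data known. Named are the 5 members, other family genes that were called or had at least 10 CPM, the 3 genes most like each member, and up to 3 members of each other list with the highest CPM, with markers at 0 in a group; a gene of the interferon lists that this rule would name is not reported here.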

Additional observations from a re-analysis of the deposited data

How the results depend on the processing

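Of 444 values of the members and their sum over 15 alternatives, 413 kept their direction and their call (adjusted p and 2-fold), 29 changed sign and 2 became calls (Ly6e between tCD115- and tCD115+ cells, given with its result). With library totals alone Ly6c1 was −0.14 between tCD115- and tCD115+ and −0.0038 between nCD115- and nCD115+ cells, and Ly6a was −0.0096 between tCD115- and nCD115- cells. With DESeq2 and with RLE size factors Ly6c2 was 0.0098 and 0.0097 and the sum of Ly6c1 and Ly6c2 was 0.0036 and 0.0036 between tCD115- and nCD115- cells, and the interaction of Ly6a was 0.021 and 0.020. Leaving out each library in turn gave, for tCD115- against tCD115+, −0.37 to 0.50 for Ly6c1. For tCD115- against nCD115- it gave −0.11 to 0.19 for Ly6a, −0.076 to 0.041 for Ly6c2 and −0.082 to 0.034 for the sum. For tCD115+ against nCD115+ it gave −0.078 to 0.20 for Ly6a and −0.53 to 0.35 for Ly6c1. For the interaction it gave −0.18 to 0.14 for Ly6a, −0.48 to 0.39 for Ly6c1 and −0.63 to 0.44 for Ly6g, and for the Ly6c2 share of EL4 TB minus naive libraries −0.0602 to 0.696 points. The count of called genes over all genes was 1130 to 2306 without 1 library between tCD115- and tCD115+ (1630 with all), 500 to 925 between nCD115- and nCD115+ (821), 36 to 1059 between tCD115- and nCD115- (434), 41 to 481 between tCD115+ and nCD115+ (343) and 0 to 173 for the interaction (0). With only the 4 libraries compared it was 36 between tCD115- and nCD115- cells, and for the interaction it was 68 with DESeq2 and 4 with no filter on low counts. The cause was not tested. The samples share replicate numbers, and deviations of same-numbered samples correlated at −0.099 to 0.078. Between the subsets of a host the correlation was 0.068 in EL4 TB and 0.078 in naive mice. Such values do not show a pairing, but they cannot exclude that the subsets of a host came from the same mice. The replicate block was common to both hosts, so pairing within a host was not modeled. With the replicate block 1590, 764, 377, 295 and 0 genes were called in the order of the comparisons above, and no call on a member changed. Ly6g in CD115+ cells rests on 32 to 97 reads and Ly6a on 265 to 466 reads per library, which limits what could be detected for them.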

Other observations

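Genes that build the GPI anchor and attach it to proteins, the step that places most Ly6 proteins on the surface, are given next. Of 28 tested, 2 were called higher and 1 lower in the comparison of tCD115- with tCD115+ cells, and 0 between nCD115- and nCD115+ cells. Between the hosts, 1 was lower in tCD115- than in nCD115- cells and 0 were called between tCD115+ and nCD115+ cells. Over all genes 12.3%, 6.21%, 3.29% and 2.6% were called in these comparisons, so the counts do not set the list apart. The median log2 fold changes of the list were −0.00, −0.03, 0.05 and 0.03 in the same order. Pigt, a subunit of the transamidase that attaches the anchor, had the highest level and a log2 fold change of −0.47 in EL4 TB mice (edgeR adjusted p = 0.00249), under 2-fold. Of 14 interferon receptor and signaling genes, 1 was called higher and 1 lower in the comparison of tCD115- with tCD115+ cells, and 0 between nCD115- and nCD115+ cells. In each comparison of EL4 TB with naive mice 1 was called higher. These counts do not stand apart from the shares of all genes given above. The lower gene was Irf8, a transcription factor of monocyte development, at −1.13 (edgeR adjusted p = 0.00418).

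Markers of other cells gave the following counts between the subsets, CD115- over CD115+. Of 14 B and plasma cell markers 1 was called higher in each host, Jchain, the joining chain of secreted antibodies, with log2 fold changes of 5.96 in EL4 TB and 4.19 in naive mice. Xbp1 (−0.05 and 0.04) and Cd79b (−0.37 and −0.30), also among the most abundant of this list, were not called. The list medians were 0.48 and 0.15. Of 9 plasmacytoid dendritic cell markers 4 were called higher in EL4 TB and 1 in naive mice and 0 lower, but the summed level was lower in CD115- cells, at 58.7 to 78.3 CPM in tCD115-, against 90.7 to 99.5 CPM in tCD115+, and 104 to 114 CPM in nCD115-, against 135 to 137 CPM in nCD115+ libraries. Its most abundant members, Bst2 and Tcf4, fell in EL4 TB mice under the 2-fold limit (−0.76 and −0.94, edgeR adjusted p = 0.0225 and 0.00371). Of 8 basophil and mast cell markers 2 were called higher in each host, with 123 to 158 CPM in sum in tCD115-, 5.38 to 6.48 CPM in tCD115+, 77.9 to 109 CPM in nCD115- and 11.8 to 13.1 CPM in nCD115+ libraries. Most of the sum in CD115- cells was Hdc, histidine decarboxylase, with 150 and 118 CPM in tCD115-, 2.54 and 1.88 CPM in tCD115+, 67.4 and 99.9 CPM in nCD115-, and 3.31 and 3.13 CPM in nCD115+ libraries. The median log2 fold changes of the list were 0.25 and −0.02, and Prss34 (−0.13 and −0.40) and Mcpt8 (0.56 and −0.09), proteases of basophils, were not called. Of 4 eosinophil markers, of cells that the gate removes by SiglecF, 1 was called higher in each host, and it was Siglecf itself. Its log2 fold changes were 2.62 in EL4 TB and 2.49 in naive mice. It had 10.5 and 7.10 CPM in tCD115-, 1.52 and 1.33 CPM in tCD115+, 5.83 and 7.78 CPM in nCD115-, and 1.28 and 1.14 CPM in nCD115+ libraries. Of 6 megakaryocyte markers 2 were called higher and 1 lower in EL4 TB and 1 higher in naive mice, and of 10 erythroid markers 0 in either.

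Ly6c1, whose tCD115+ libraries differ most, was most like Fnta (r = 0.936), Fbxo6 (r = 0.841) and Zbed5 (r = 0.840). Zbed5 had 0.111 CPM in tCD115+ replicate 1 and 15.2 to 22.6 CPM in the other 7 libraries, and that library also had the lowest Ly6c1 level. With Ly6a the next most alike genes after Ripk1 were Mrgpra2a (r = 0.838) and Sptlc2 (r = 0.830).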
